A study of Mus musculus with 2 samples.

Results

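The Mir302 and Mir290 clusters are the microRNA (miRNA) gene clusters best known from pluripotent cells, and their members were taken by symbol. The rule took Mir302a, Mir302b, Mir302c, Mir302d and Mir367 on chromosome 3, and every gene from Mir290 to Mir295 with any letter on chromosome 7. The annotation holds 14 such genes, and 12 of them have a row among the 1973 miRNA genes of the count tables, 5 in the Mir302 cluster and 7 in the Mir290 cluster. Mir290b and Mir292b, which lie on the opposite strand of Mir290a and Mir292, have no row and were not analysed here.

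Small RNA was sequenced from midbrain of B6NCrl mouse embryos aged 15.5 days, with males and females mixed in each pool. Replicate 2 pooled 62 embryos and replicate 1 pooled 78, and the labels call them biological replicates. No treatment, mutation or other tissue was part of the design, so the comparisons are between the clusters within each library and between the pools.

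A cluster of this kind is transcribed as a long precursor, from which short hairpins are cut and then trimmed to mature miRNAs. A mature miRNA recognises its target RNAs mainly through its seed, bases 2 to 8 from the 5′ end. The Mir290 cluster is the leading miRNA cluster of mouse embryonic stem cells and is also active in early germ cells. The Mir302 cluster is active after implantation, in the epiblast and the early neural epithelium, and mice lacking it have defects in closure of the neural tube. Both clusters encode miRNAs with a related seed that promotes the cell cycle and restrains differentiation, and both are known to be shut down as tissues mature. Mir367, at the end of the Mir302 cluster, carries another seed, shared with the Mir25 and Mir92 genes.

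The sequences show what the clusters share and where they part. Mature sequences (RefSeq, GRCm38.p6) were found for all 12 members with a row, and they are 21 to 24 bases long. They are printed 5′ to 3′ with the seed in capitals. The first set holds the Mir302 cluster in the order of its genes, with the arm on the 3′ side of the hairpin where the table has it.
mmu-miR-302b-3p: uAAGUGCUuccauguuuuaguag
mmu-miR-302c-3p: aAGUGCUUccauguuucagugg
mmu-miR-302a-5p: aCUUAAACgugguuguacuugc
mmu-miR-302d-3p: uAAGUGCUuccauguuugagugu
mmu-miR-367-3p: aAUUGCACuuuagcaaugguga

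The next set holds the Mir290 cluster.
mmu-miR-290a-3p: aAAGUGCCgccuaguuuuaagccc
mmu-miR-291a-3p: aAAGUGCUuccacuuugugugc
mmu-miR-292a-5p: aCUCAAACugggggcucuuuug
mmu-miR-291b-3p: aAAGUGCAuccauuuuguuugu
mmu-miR-293-3p: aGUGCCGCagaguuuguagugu
mmu-miR-294-3p: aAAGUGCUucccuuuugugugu
mmu-miR-295-3p: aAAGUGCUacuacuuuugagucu

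The seed AAGUGCU belonged to 5 mature miRNAs, miR-302b-3p and miR-302d-3p of the Mir302 cluster and miR-291a-3p, miR-294-3p and miR-295-3p of the Mir290 cluster, and to no other of the 1738 mature sequences in the table. The listed sequence of miR-302c-3p starts with those letters, so its seed is AGUGCUU. No 3p sequence was listed for Mir302a or Mir292, so their 3p seeds were not compared, though both hairpins hold the core AAGUGC. The core AAGUGC was found in 4 of 5 Mir302 cluster hairpins and 7 of the 8 Mir290 cluster hairpins in the table, which are those of all 9 annotated genes but Mir291a, against 26 of 992 other hairpins (2.62%). Read on the other strand, as the reverse complement, the core was found in 2.59% of all 1005 hairpins. The hairpin of Mir302a, the most counted member, and that of Mir292 are shown whole with the core in capitals.
Mir302a hairpin: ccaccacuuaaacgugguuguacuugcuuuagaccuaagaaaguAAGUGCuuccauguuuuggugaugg
Mir292 hairpin: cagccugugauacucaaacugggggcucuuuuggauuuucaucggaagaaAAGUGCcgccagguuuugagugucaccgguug

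The clusters differ in layout. On mm10 the Mir302 cluster spans 580 bases, from 127545228 to 127545807 of chromosome 3 on the plus strand. Its order is Mir302b, Mir302c, Mir302a, Mir302d and Mir367, with gaps of 43 to 65 bases. The whole span lies in an intron of Larp7, a gene for a protein that binds the 7SK RNA, which is transcribed from the opposite strand. The Mir290 cluster spans 2216 bases, from 3218626 to 3220841 of chromosome 7, with the 7 counted genes on the plus strand. From Mir291a to Mir295 its genes lie within an exon, in its untranslated part, of Nlrp12 on the opposite strand, and Mir290a lies outside that gene. Opposite-strand counts were 0 over every member in both libraries, except 2 counts over Mir290a in replicate 2.

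Levels are in CPM (counts per 1000000), here sense counts relative to the sense total of the library over all miRNA genes. The libraries held 5752476 sense counts in replicate 2 and 3429704 in replicate 1, so a single read equals 0.174 CPM in the replicate 2 library and 0.292 CPM in that of replicate 1. For a gene with 0 counts, the limit that 3 counts set was 0.522 CPM in replicate 2 and 0.875 CPM in replicate 1. Intervals are exact Clopper-Pearson intervals at 95%, and intervals and limits cover counting error only. The 4 listed markers of midbrain neurons (Mir137, Mir153, Mir7b and Mir128-1) summed to 19294 CPM in replicate 2 and 17999.8 CPM in replicate 1. Of neuronal genes not on that list, the Mir124a copies had few counts, with a mean of 3.69 CPM for Mir124a-1, 3.26 CPM for Mir124a-2 and 0.552 CPM for Mir124a-3. Reads that map to several places are given to no gene in these tables, so counts of such copies are uncertain. They do not give the level of the mature miRNA. The reason was not tested. In a bulk tissue, fewer cells of a type and less RNA per cell cannot be told apart. The counts are per hairpin, so neither arm can be told from the other.

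Of the 5 genes of the Mir302 cluster, 4 reached at least 1 CPM in both libraries, as did 3 of the 7 genes of the Mir290 cluster, beside 22.5% of all 1973 genes. At least 1 count in either library was found for 10 of the 12 members, beside 36.3% of all genes. Mir302a, for which only the 5p sequence was listed, was the most counted member. It had 2390 counts (415.5 CPM, interval 399 to 432.5) in replicate 2 and 1167 counts (340.3 CPM, 321 to 360.4) in replicate 1. Mir302d, whose 3p miRNA has the AAGUGCU seed, had 2036 counts (353.9 CPM) in replicate 2 and 907 counts (264.5 CPM) in replicate 1. Mir302b, the first gene of the cluster, had 1310 counts (227.7 CPM) in replicate 2 and 646 counts (188.4 CPM) in replicate 1. All 3 of these genes were higher in replicate 2.

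Mir302c, which lies between Mir302b and Mir302a, was far lower, with 195 counts (33.9 CPM) in replicate 2 and 128 counts (37.3 CPM) in replicate 1. Mir367 had 1 count in replicate 2 and 0 in replicate 1, both under the limit of 3 counts. It lies only 43 bases beyond Mir302d, so the member with the fewest counts in the span stood beside the gene with the next most counts after Mir302a. Levels did not follow the order of the genes along the chromosome, since the lowest and the highest of the 4 detected genes are neighbours.

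**Figure D1:**
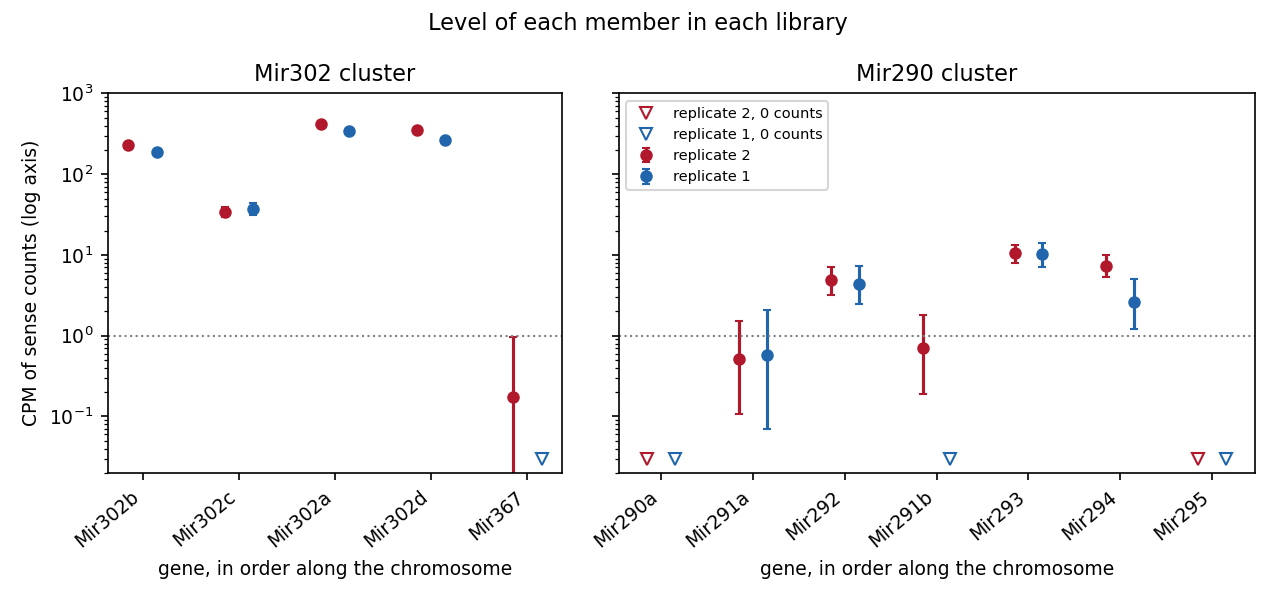
CPM of sense counts (log axis) for each member in replicate 2 (red) and replicate 1 (blue), with bars for the exact 95% counting interval, the dotted line at 1 CPM and open triangles, set at the foot of the axis, for genes with 0 counts (the bar of Mir367 runs below the axis). Mir302a, Mir302d and Mir302b lie between 188.4 and 415.5 CPM, Mir293 at 10.4 and 10.2 CPM, and Mir290a and Mir295 at 0 counts in both libraries.

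When CPM was divided by hairpin length (66 to 84 bases), as an alternative scale, the order of the members was the same as by CPM. Mir302a had 5.48 ± 0.771 CPM per base (SD, n = 2), Mir302d 4.69 ± 0.959, Mir302b 2.81 ± 0.376 and Mir302c 0.524 ± 0.0356. The SDs of Mir302a and Mir302d overlap, while the steps from Mir302d to Mir302b and from Mir302b to Mir302c exceeded their SDs. Inside each library Mir302a exceeded Mir302d, by 1.17 times in counts (interval 1.11 to 1.25) in replicate 2 and by 1.29 times (1.18 to 1.41) in replicate 1. That is beyond counting error in both libraries. The overlapping SDs are those of levels over the pools, where both genes were higher in replicate 2, not of this ratio. Whether the ratio exceeds its own spread over the 2 libraries was not tested. Mir302b exceeded its neighbour Mir302c by 6.17 times per base in replicate 2 and by 4.64 times in replicate 1.

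The make-up of the Mir302 cluster was similar in the pools. Mir302a took 40.3% of the cluster's counts in replicate 2 (interval 39.04 to 41.5) and 41.0% in replicate 1 (39.2 to 42.8). Mir302d took 34.3% in replicate 2 (33.11 to 35.55) and 31.9% in replicate 1 (30.14 to 33.59). Mir302b took 22.1% in replicate 2 and 22.7% in replicate 1. Mir302c took 3.29% in replicate 2 (2.85 to 3.77) and 4.49% in replicate 1 (3.76 to 5.32). The intervals of the 2 libraries overlap for each of these 4 genes, for Mir302d and Mir302c only near their ends. Such overlap does not show that the shares were equal, which was not tested.

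**Figure D2:**
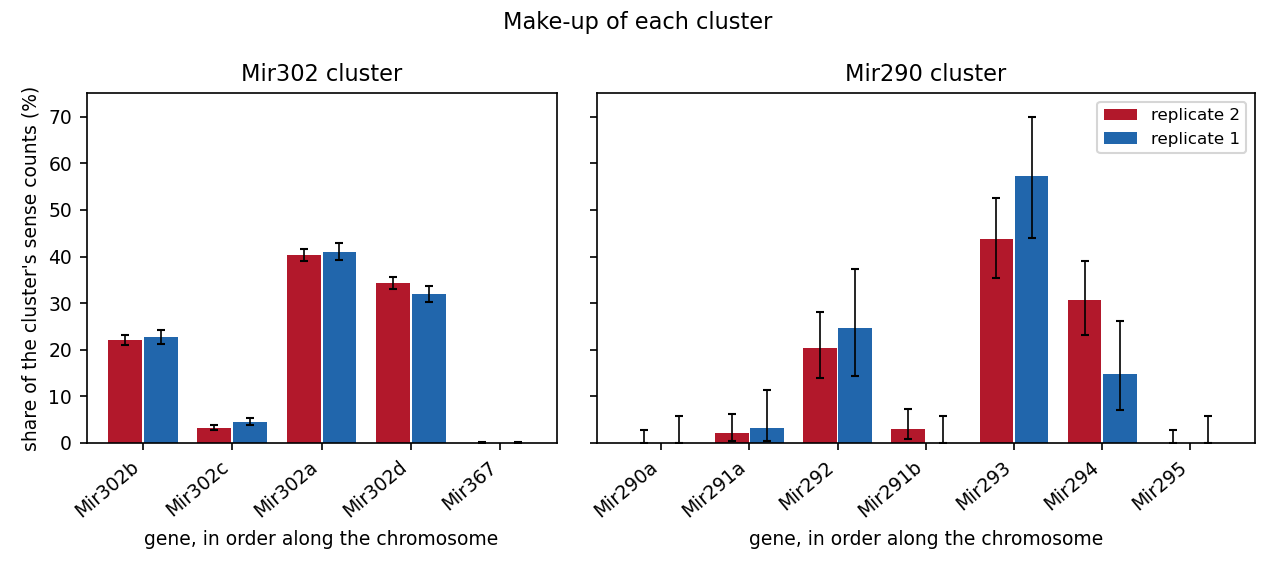
Share of each cluster's sense counts (%) taken by each gene in replicate 2 (red) and replicate 1 (blue), with bars for the exact 95% interval. Mir302a takes 40.3% and 41.0% of its cluster, and Mir293 takes 43.8% and 57.4% of the much smaller Mir290 cluster, where the intervals are wide.

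The Mir290 cluster was present at a low level, and most of its counts came from 3 genes. Mir293, whose 3p miRNA starts further into the shared core, was the most counted, with 60 counts (10.4 CPM, interval 7.96 to 13.4) in replicate 2 and 35 counts (10.2 CPM, 7.11 to 14.2) in replicate 1. Mir294, whose 3p miRNA has the AAGUGCU seed and is among the most abundant miRNAs of mouse embryonic stem cells, had 42 counts (7.30 CPM, 5.26 to 9.87) in replicate 2 and 9 counts (2.62 CPM, 1.20 to 4.98) in replicate 1. Mir292 had 28 counts (4.87 CPM) in replicate 2 and 15 counts (4.37 CPM) in replicate 1. Levels of Mir293 and Mir292 in the pools overlapped within counting error, and those of Mir294 did not.

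The other 4 genes had 4 counts or fewer in each library. Mir291a had 3 counts in replicate 2 and 2 in replicate 1, and Mir291b had 4 in replicate 2 and 0 in replicate 1. Mir290a and Mir295, at either end of the cluster, had 0 counts in both libraries, and the exact interval reached 0.641 CPM in replicate 2 and 1.08 CPM in replicate 1. Of the 3 Mir290 cluster genes whose 3p miRNA has the AAGUGCU seed, only Mir294 was above the limit of 3 counts in either library.

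Per base of hairpin, Mir293 had 0.129 ± 0.00199 CPM, Mir294 0.0591 ± 0.0394 and Mir292 0.0564 ± 0.00426 (SD, n = 2). Mir294 and Mir292 did not differ beyond their spread, and their order turned between the libraries. Mir293 exceeded Mir292 in counts by 2.14 times (interval 1.35 to 3.49) in replicate 2 and by 2.33 times (1.24 to 4.60) in replicate 1. It exceeded Mir294 by 3.89 times (1.83 to 9.20) in replicate 1, whereas in replicate 2 the ratio of 1.43 had an interval that includes equality (0.947 to 2.17).

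Set against each other, the Mir302 cluster held far more of the midbrain counts than the Mir290 cluster. The Mir302 cluster held 5932 counts in replicate 2 and 2848 in replicate 1, or 0.0931 ± 0.0142% of sense counts (931 ± 142 CPM, SD, n = 2). The Mir290 cluster held 137 counts in replicate 2 and 61 in replicate 1, or 0.00208 ± 0.000426% (20.8 ± 4.26 CPM). The ratio of Mir302 to Mir290 counts was 43.3 in replicate 2, with an interval of 36.5 to 51.7, and 46.7 in replicate 1, with one of 36.2 to 61.2. This is a mean log2 ratio of 5.49 ± 0.077 (SD, n = 2), or 45.0-fold. The ratio thus moved little between the pools, with each library's value inside the other's interval.

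The size of that ratio depends on which genes are summed, while its direction held under every alternative run. The clusters' summed counts per hairpin base differed by 53.1-fold. Mir302a shares a run of 20 bases with Mir302b, and Mir291a a run of 20 bases with Mir291b. Reads that map to several places are given to no gene in these tables, so the counts of these 4 genes are uncertain. Without them the ratio was 17.4-fold. The lowest detected Mir302 gene, Mir302c, still exceeded the highest Mir290 gene, Mir293, by 3.25 times in counts (2.42 to 4.42) in replicate 2 and by 3.66 times (2.50 to 5.48) in replicate 1, and per base by 3.82 times in replicate 2 and 4.30 times in replicate 1. Mir302c shares at most 16 bases with another miRNA hairpin and Mir293 at most 12.

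**Figure D3:**
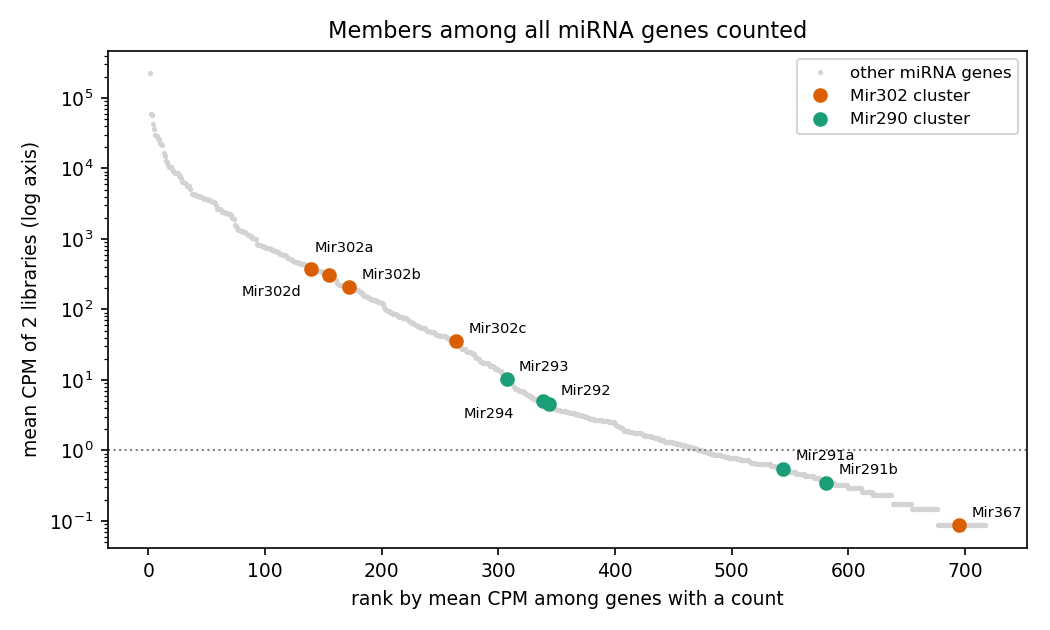
Mean CPM of the 2 libraries (log axis) against rank among the 717 genes with a count, with Mir302 cluster genes in orange, Mir290 cluster genes in green and all others in grey. Mir302a, Mir302d, Mir302b and Mir302c all stand above Mir293, the highest Mir290 cluster gene at 10.3 CPM, and Mir367 stands at the lowest level counted.

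Among all 1973 genes, Mir302a ranked 139 by mean CPM, Mir302d 155, Mir302b 172 and Mir302c 264, while Mir293 ranked 307, Mir294 338 and Mir292 343. The genes nearest to Mir302a in level, by the summed difference of log2(CPM + 1) over the 2 libraries, were Mir760 (0.128), Mir135a-2 (0.220) and Mir672 (0.226). Those nearest to Mir293 were Mir504 (0.105), Mir3097 (0.143) and Mir544 (0.249). With 2 libraries this likeness is one of level alone.

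Where Mir367 and Mir291b had hardly a count, genes outside the clusters that carry their seeds were well counted. Mir25, Mir32, Mir363, Mir92-1, Mir92-2 and Mir92b share the AUUGCAC seed of miR-367-3p. They ranged from 57.4 ± 6.22 CPM for Mir92-2 to 4060 ± 22.2 CPM for Mir92b (SD, n = 2), while Mir367 itself had 1 count over both libraries. Mir92-1 and Mir92-2 encode the same miR-92a-3p. Reads that map to both are given to neither, so the counts of these genes are uncertain. Mir350, whose 5p miRNA shares the AAGUGCA seed of miR-291b-3p, had 604 ± 23.0 CPM, against 4 counts of Mir291b over both libraries. Since counts are per hairpin, they do not give the level of the arm that carries the seed. The 6 listed genes whose miRNAs carry the core shifted by a base (Mir17, Mir20a, Mir20b, Mir93, Mir106a and Mir106b) summed to 57130.0 CPM in replicate 2 and 54333 CPM in replicate 1, while the Mir302 cluster summed to 1031 CPM in replicate 2 and 830.4 CPM in replicate 1.

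Between the pools, Mir302d, Mir302a and Mir302b were higher in replicate 2 beyond counting error. After TMM scaling, the fold of replicate 2 over replicate 1 was 1.31 for Mir302d (interval 1.21 to 1.42, adjusted p 1.13e-10), 1.19 for Mir302a (1.11 to 1.28, adjusted p 6.01e-06) and 1.18 for Mir302b (1.07 to 1.30, adjusted p 0.00364), in a two-sided conditional exact binomial test with Benjamini-Hochberg adjustment over 717 genes. Mir302c did not pass, at 0.888-fold (0.707 to 1.12, adjusted p 0.623 in the same exact test). Whether Mir302c differed from its neighbours in this ratio was not tested. The test compares these libraries, not conditions.

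Of the Mir290 cluster, Mir294 was higher in replicate 2, at 2.72-fold (interval 1.30 to 6.35, adjusted p 0.0211 in the exact binomial test), on 42 counts in replicate 2 and 9 in replicate 1. Mir293 had a fold of 0.999 (0.648 to 1.56) and Mir292 of 1.09 (0.561 to 2.19), and neither passed. No ratio was taken for the 5 members with 3 counts or fewer in a library. Of all 717 genes, 9.76% were called higher in replicate 2. The share was 14.8% among the 216 genes at a mean of 10 to 1000 CPM, where the 4 detected Mir302 genes lie, and 4.80% among the 271 genes at a mean of 1 to 100 CPM, where Mir294 lies. The median log2 ratio with a pseudocount of 1 CPM was 0.25 over the 4 detected Mir302 genes and 0.10 over the 3 detected Mir290 genes, beside 0.036 over all 717 genes. With a coefficient of variation of 10% between pools allowed for, edgeR's exact test called none of the 4 genes, with an adjusted p of 0.462 for Mir294 and 1.0 for the Mir302 genes.

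Of the 5 listed Hox cluster miRNAs, markers of hindbrain and trunk, Mir10a, Mir10b and Mir196b passed the exact binomial test toward replicate 2, beside the 9.76% of all genes given above. Mir196a-2 had 6 counts in replicate 2 and 1 in replicate 1, and Mir196a-1 was at 0. The sum of the 5 was 1481 CPM in replicate 2 and 1008 CPM in replicate 1. Reads that map to several places are given to no gene, so counts of gene copies such as Mir196a-1, Mir196a-2 and Mir9-3 are uncertain. Liver Mir122 was also higher in replicate 2, at 76.1 CPM against 43.15 CPM in replicate 1, and muscle Mir206 had 15.99 CPM in replicate 2 and 11.7 CPM in replicate 1, which did not pass. Endothelial Mir126a was lower in replicate 2, at 21568 CPM, against 24909 CPM in replicate 1. Of the listed neural progenitor genes, Mir92b was called lower in replicate 2 (4044.5 CPM, against 4076 CPM in replicate 1) and Mir9-3 higher (512 CPM, against 455 CPM in replicate 1). Of the 4 listed neuronal genes, Mir137 and Mir153 were called higher, at log2 ratios of 0.068 and 0.083. Genes with many counts pass this test at small ratios, as did Mir92b at -0.045. The share of all genes called at their level was not taken. Over all genes, 142 were called in either direction. The 3 blood miRNAs summed to 340.9 CPM in replicate 2 and 338.2 CPM in replicate 1, and none passed. Once a 10% spread between replicates was allowed for with edgeR, none of these markers passed, with the lowest adjusted p at 0.213 for Mir122. The part of these tissues in the Mir302 and Mir294 ratios was not tested.

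**Figure D4:**
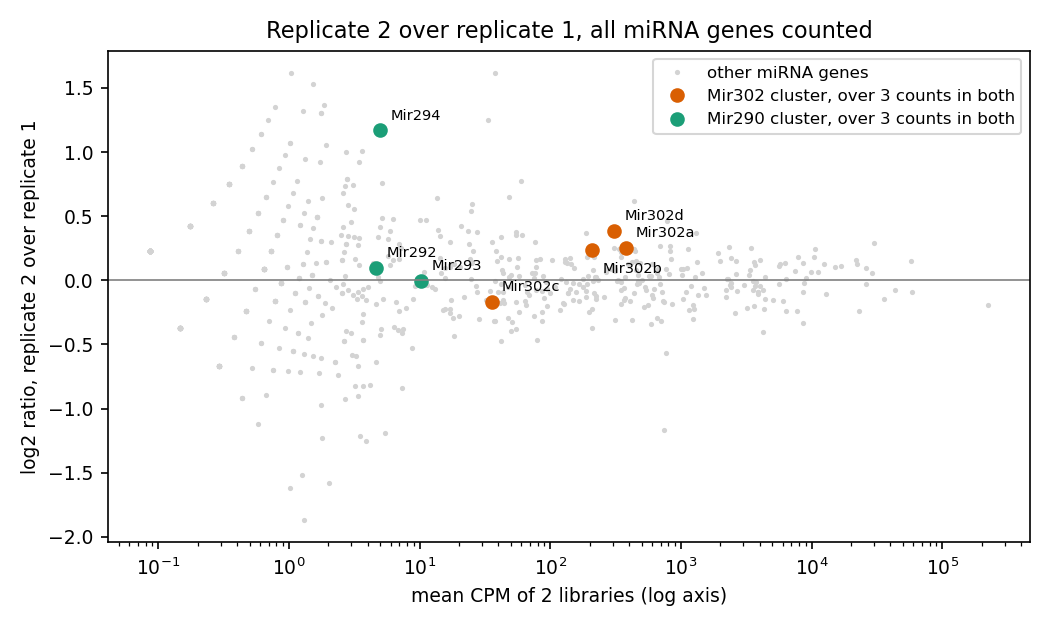
Log2 ratio of replicate 2 over replicate 1 (TMM scaling, pseudocount of 1 CPM) against mean CPM (log axis) for every gene with a count, with the 4 Mir302 cluster genes in orange and the 3 Mir290 cluster genes in green that had more than 3 counts in both libraries. Mir302d, Mir302a and Mir302b lie at 0.39, 0.25 and 0.24, Mir302c at -0.17, and Mir294 at 1.17 among low genes whose ratios scatter widely.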

How the data were processed

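Each library came from the authors as a table of raw read counts per miRNA gene, whatever the strand, on the sense strand and on the opposite strand, with no normalization. Per the deposited readme text, the assembly was mm10 and the annotation GENCODE M4. Aligner, counter and settings were not given in the sources used here. These tables have the layout of STAR's gene counts, in which reads with several mapping places go to no gene. Such reads were 35.8% of all reads in replicate 2 and 37.7% in replicate 1. The 4 rows that name no gene stayed out of library sizes and tests.

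Symbols and positions came from GENCODE M21 on the same assembly, which matched 1894 of 1973 identifiers, and miRNA sequences from RefSeq. The sense counts were scaled to CPM over all genes. Clusters were compared as summed counts within each library. The design has 1 group, so edgeR's quasi-likelihood test had no contrast. The pools were compared by a conditional exact binomial test with TMM scaling (edgeR 4.0.16, R 4.3.3) and Benjamini-Hochberg adjustment. It was tried on simulated counts with counting error only, which cannot show how it behaves under spread between pools. A call was an adjusted p under 0.05. The counts differed beyond sampling noise (chi-square of 27185, 468 degrees of freedom), so the tables differ by more than random sampling of the same reads. That test cannot tell biological replicates from separate preparations of 1 pool. That the pools are biological replicates rests on their labels, and a shared technical bias would not show in their spread.

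Named genes were all members, holders of a member's seed, 6 genes with the shifted seed, and the 3 genes nearest in level to the highest member of each cluster. Members, lists and markers were chosen with earlier results of these data known. Alternatives were DESeq2 1.42.0 size factors, total counts, other columns, filters, pseudocounts of 0.1 and 10 CPM, and leaving out each replicate.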

Additional observations from a re-analysis of the deposited data

How the results depend on the processing

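No paired analysis was possible because the series has 1 group. The log2 ratio of the Mir302 over the Mir290 cluster (5.49) was 5.73 per hairpin base, 8.35 by member medians (the Mir290 median rests on 4 counts in replicate 2 and 2 in replicate 1, so its size cannot be relied on), 5.77 without the highest member of each cluster and 4.12 without members sharing 20 bases with another hairpin, and 5.44 to 5.54 with a replicate left out. Of all reads listed, the Mir302 cluster held 0.0415% and the Mir290 cluster 0.000926%, since that total also counts reads given to no gene. With a replicate left out, the shares of sense counts were 0.0830 to 0.103% and 0.00178 to 0.00238%. The exact binomial test called 142 genes apart and edgeR's exact test with a coefficient of variation of 10% called 3, none of them members. The ratio of Mir293, not called, was -0.002 and turned to 0.029 with total counts and 9.0e-05 without regard to strand. The calls of Mir302a, Mir302b, Mir302d and Mir294 held under the other scalings, the filter and counts without regard to strand. The pseudocount does not enter that test, and with 10 CPM the log2 ratio of Mir294 was 0.44. Counts below about 10 a library limit what can be said of Mir291a, Mir291b, Mir294 and Mir367.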
